A study of Mus musculus with 18 samples.

Results

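The 7 genes described here, Calca, Grp, Chga, Chgb, Resp18, Syp and Uchl1, are transcripts by which pulmonary neuroendocrine cells are commonly recognised, and they were taken by symbol from the 23420 genes listed for each mouse line. The data were RNA-seq measurements of 18 whole lungs of mouse embryos at 14.5 days post coitus (dpc), with 3 control and 3 deficient lungs in each of 3 lines. The deficient lungs were Rptor f/f, Tfam f/f or Cox10 f/f, and their littermate controls carried a single floxed copy (f/+) of the same gene. Every embryo, controls included, also carried ShhCre/+, so no group was free of Cre or of a floxed allele. Shh-Cre is active in the epithelium of the lung and not in its mesenchyme, vessels or nerves, whereas the RNA came from the whole organ. Rptor encodes a subunit of the kinase complex mTORC1, Tfam a factor that maintains mitochondrial DNA, and Cox10 an enzyme of heme A synthesis, on which cytochrome c oxidase depends. Embryos of both sexes were used. The study combined mutants from separate litters, the sources used here do not say which lungs shared one, and each lung was treated as a separate sample.

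Pulmonary neuroendocrine cells are rare epithelial cells of the conducting airways. They arise from airway progenitors during branching, gather at branch points, sense changes in the airway and release peptides and amines from dense-core granules onto nerves and neighbouring cells. Several of these genes are also used by neurons, so a whole lung at this stage can hold their transcripts from the nerves and ganglia that lie along the airways.

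The comparison asked whether the neuroendocrine transcripts of the lung moved with the loss of mTORC1 activity or of mitochondrial function in the epithelium. They did not move as a group. Uchl1 was lower in deficient lungs, with mean levels of 0.407 (Rptor), 0.704 (Tfam) and 0.647 (Cox10) times those of controls, and passed limma's test in the fit of each line for Rptor and Tfam but not for Cox10. The Tfam and Cox10 calls changed in other fits, given with their values. Calca went the other way, with mean levels 2.52, 1.91 and 1.2 times those of controls, and passed when the effect was averaged over the 3 lines but not in the fit of any line alone. Its Rptor effect did pass in a fit of all 18 lungs. The granins Chga and Chgb, the peptide gene Grp and the vesicle gene Syp passed in no line, and Resp18 was too low to test.

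In GENCODE M21 (GRCm38, the build mm10) Calca lies on chromosome 7 (114631478 to 114636357, minus strand), Uchl1 on chromosome 5 (66676091 to 66687234), Chga on chromosome 12 (102554969 to 102565028) and Chgb on chromosome 2 (132781278 to 132795079). Resp18 lies on chromosome 1 (75272199 to 75278415, minus strand) and Syp on chromosome X (7638471 to 7653256). The promoters of Uchl1 and Calca are shown because these are the members that passed, in opposite directions. RefSeq promoters of 300 bases (GRCm38.p6, 250 before and 50 from the start of transcription) were found for 6 of the 7 members. Capitals mark CAGCTG, a form of the E-box, the short motif that basic helix-loop-helix factors recognise, and it reads the same on both strands. The Uchl1 promoter lies on chromosome 5 (chr5:66675871-66676170, plus strand) and the Calca promoter on chromosome 7 (chr7:114636308-114636607, minus strand).
Uchl1: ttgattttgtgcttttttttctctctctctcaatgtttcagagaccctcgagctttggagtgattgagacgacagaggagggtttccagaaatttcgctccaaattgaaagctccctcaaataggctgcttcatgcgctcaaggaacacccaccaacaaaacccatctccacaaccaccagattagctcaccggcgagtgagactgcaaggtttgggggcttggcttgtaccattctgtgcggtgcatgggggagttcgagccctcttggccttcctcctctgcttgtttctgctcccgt
Calca: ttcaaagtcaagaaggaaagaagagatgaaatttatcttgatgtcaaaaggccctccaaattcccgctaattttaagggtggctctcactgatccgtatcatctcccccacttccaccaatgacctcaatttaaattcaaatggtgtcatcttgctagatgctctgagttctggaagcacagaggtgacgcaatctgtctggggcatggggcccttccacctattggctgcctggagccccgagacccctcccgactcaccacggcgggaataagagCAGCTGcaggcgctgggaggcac
The Calca promoter held the motif once, beginning at base 28 counted from the start of transcription, and the Uchl1 promoter held no match. Of the 6 member promoters 4 held it (Calca, Chga, Chgb and Resp18), against 16.3% of all 32851 promoters. A match of these letters is a description and not a binding site.

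The libraries were alike in depth, with 27727200 to 29611100 normalised read counts each, a value of 1 standing for close to a single read. The members differed widely in level. Divided by exon length, Uchl1 stood at 507 to 651 normalised counts per kilobase in the control means of the 3 lines. Next came Grp at 15.3 to 31.9 and Syp at 21.0 to 25.4 per kilobase, which were not separated from each other. Calca followed at 6.31 to 8.71 per kilobase, Chgb at 1.96 to 7.42, Chga at 2.29 to 5.07 and Resp18 at 0.967 to 3.91, each range overlapping the next. The lines were normalised in separate tables, so these ranges are not a test between lines. Uchl1 was thus far more abundant in the lung than the peptide and granin genes. The lung at 14.5 dpc held only a few reads of the less abundant members, and for Resp18 between 0 and 6.06 normalised counts in a whole lung.

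**Figure D1:**
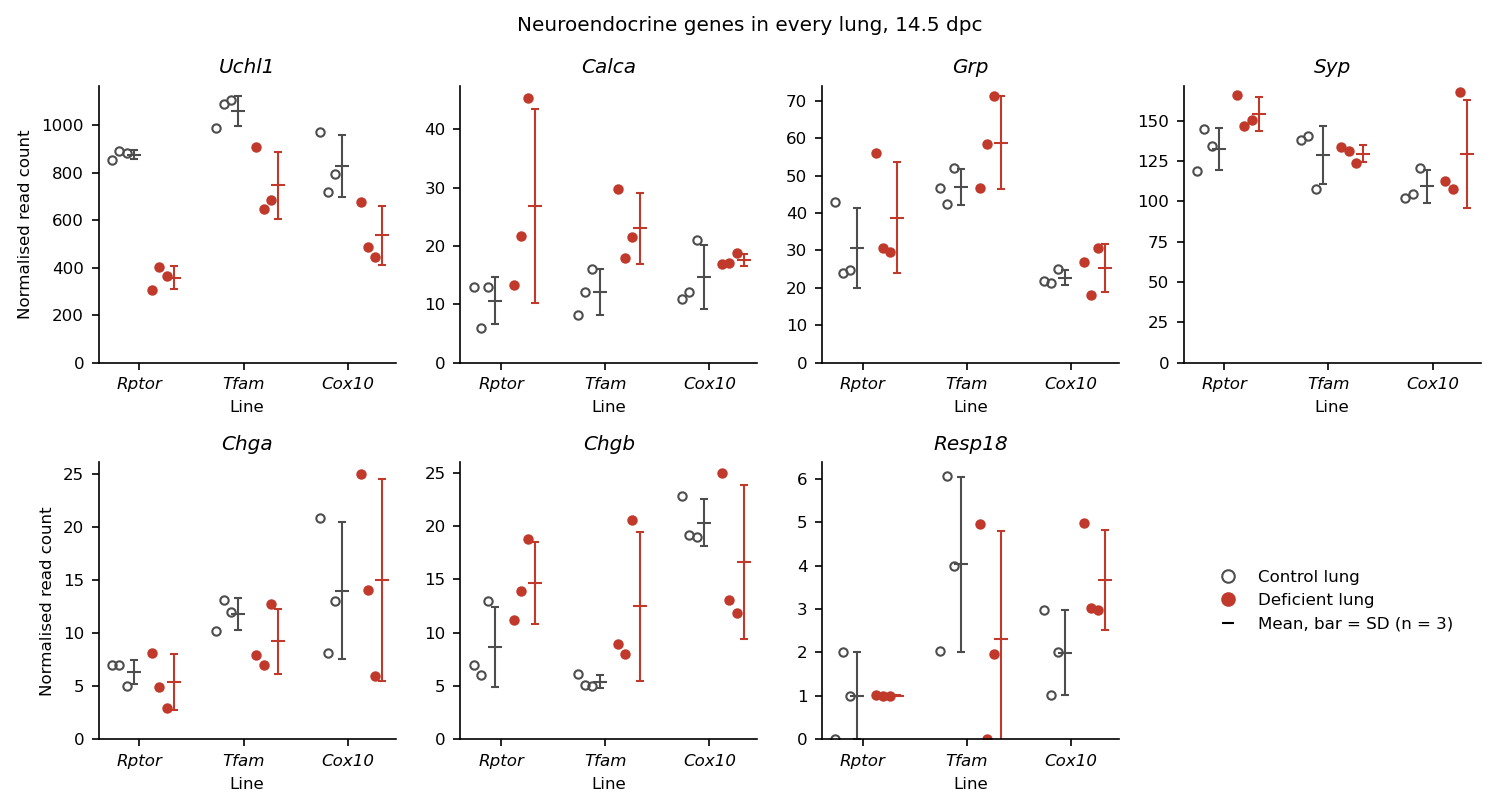
Normalised read count (vertical axes, from 0) of each of the 7 genes in every lung of the 3 lines (horizontal axes); open circles are control lungs, filled circles deficient lungs, and the dash with its bar is the mean and SD of 3 lungs. Uchl1 was lower in all 3 deficient lungs than in all 3 controls of every line, while the other genes mostly overlapped or stood higher in deficient lungs.

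Each targeted gene was first looked at as a check of the labels. Rptor read 2298, 2224 and 2197 normalised counts in its controls against 2442, 1986 and 2020 in deficient lungs, Tfam read 1057, 1063 and 1185 against 940, 994 and 1107, and Cox10 read 753, 812 and 824 against 809, 829 and 743. In each line the groups overlapped. Whole-gene totals include exons outside the floxed part and cells in which Cre is not active, so these values could not check the labels. Genes were tested in a line with limma on log2(normalised count + 1) where at least 3 of the 6 lungs held 10 or more, and a gene passed at an adjusted p below 0.05. That filter left 5 members in the Rptor line (not Chga or Resp18), 5 in the Tfam line (not Chgb or Resp18) and 6 in the Cox10 line (not Resp18). Chgb entered the Rptor line mostly through its deficient lungs, all 3 of which held 10 or more against 1 control.

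Uchl1 encodes a ubiquitin hydrolase that is abundant in neurons and neuroendocrine cells. In the Rptor line the controls held 855, 891 and 882 normalised counts and the deficient lungs 305, 401 and 364. Every Rptor-deficient lung was far below every control, with a gap many times wider than the spread of the controls. This is a log2 fold change of -1.30 (SE 0.11), with an adjusted p of 0.000121 by limma. In this line 1 of the 5 members tested passed, against 34.8% of all genes tested, so a call here was not unusual.

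Tfam controls held 990, 1089 and 1106 normalised counts of Uchl1 and Tfam-deficient lungs 909, 647 and 685. The groups again did not overlap, although Tfam-deficient replicate 1 lay close to the lowest control. Uchl1 differed by -0.52 on the log2 scale (SE 0.11, limma adjusted p = 0.0261), the only pass among the 5 members tested, against 4.66% of all genes. This pass was lost when control replicate 1, control replicate 2, deficient replicate 2 or deficient replicate 3 was left out, with adjusted p from 0.00177 to 0.113 over the 6 such fits, and in a limma fit of all 18 lungs (0.0812).

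Cox10 controls held 971, 718 and 793 and Cox10-deficient lungs 676, 488 and 444 normalised counts of Uchl1. All 3 deficient lungs were below all 3 controls, and replicate 1 was the highest of each group. The difference of -0.64 on the log2 scale (SE 0.17) did not pass by limma (adjusted p = 0.207), while DESeq2 on the recovered reads gave an adjusted p of 0.019 and a limma fit of all 18 lungs 0.0338. Among the 6 members tested in this line 0 passed by limma or edgeR, 1 by DESeq2, and 1 had an unadjusted limma p below 0.05. Of all 14937 genes tested, limma called 0.475% and DESeq2 called 325, and 1945 had an unadjusted limma p below 0.05.

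The effects on Uchl1 were then compared between lines, each taken within its own table. The log2 effect in the Rptor line minus that in the Tfam line was -0.78 (SE 0.21, limma adjusted p = 0.0266), the single pass among 4 members tested in all lines, against 11.2% of all genes. That pass was lost in fits without Rptor control replicate 2, Rptor deficient replicate 1, Tfam control replicate 1, Tfam control replicate 2 or Tfam deficient replicate 1 (-0.63 to -0.80, adjusted p from 0.0548 to 0.0631). Between the Rptor and Cox10 lines the difference was -0.66 (95% interval -1.12 to -0.21, limma adjusted p = 0.0682). There 0 members passed by limma or edgeR, where limma called 7.48% of all genes. An unadjusted limma p below 0.05 was found for 1 member, and for 3346 of all 14550 genes. With the replicate number as a block Uchl1 passed there (adjusted p = 0.0251), as it did by DESeq2 (0.0321) and by limma without Cox10 control replicate 1 (0.0484) or Cox10 deficient replicate 3 (0.0222). Between the Tfam and Cox10 lines the difference was 0.12 (95% interval -0.33 to 0.57). In that comparison 0 members passed by limma, edgeR or DESeq2 or had an unadjusted p below 0.05, against 0.055% of all genes passing by limma. Averaged over the 3 lines the log2 fold change of Uchl1 was -0.82 (SE 0.087, limma adjusted p = 2.02e-06), lower in all 9 deficient lungs than in any control of the same line. Of the 4 members tested for this average, 2 passed, against 37.1% of all genes.

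Genes of the whole lung epithelium were read beside Uchl1. E-cadherin (Cdh1) dropped by 1.89 on the log2 scale in Rptor-deficient lungs (limma adjusted p = 2.16e-05) and by 0.55 in Tfam-deficient lungs (0.000371), and its difference was -0.43 in Cox10-deficient lungs (0.139). Of 7 epithelial genes all 7 passed lower for Rptor, against 34.8% of all genes tested. For Tfam 2 passed lower (Cdh1 and Cldn6), against 4.66%. There the mean of Epcam was 0.967 and that of Cldn7 1.13 times the control mean. The Tfam pass of Cldn6 (-0.29, limma adjusted p = 0.0155) was lost without control replicate 1 (0.0769) or deficient replicate 1 (0.0783) and with all 18 lungs in 1 fit (0.178). Of the 7, 0 passed for Cox10 by limma or edgeR and 3 by DESeq2, while 6 had an unadjusted p below 0.05. In that line DESeq2 called 325 of all 14937 genes, and 1945 had an unadjusted limma p below 0.05. The summed level of the 7 epithelial genes lay between 27689 and 28792 in Rptor controls and between 10900 and 14493 in Rptor-deficient lungs. For Tfam the controls summed to between 25540 and 27028 and the deficient lungs to between 20773 and 23348. For Cox10 the sums were 20843 to 21231 against 14295 to 19231.

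Set against the mean of Epcam, Cdh1 and Nkx2-1 in the same lung, Uchl1 differed by -0.13 for Rptor (limma adjusted p = 0.389), by -0.25 for Tfam (0.126) and by -0.24 for Cox10 (0.286), and none of these passed. The same scaling shifted the log2 median of all genes upwards by 1.18, 0.27 and 0.40. The reference genes did not fall alike. In the Rptor line Epcam, Cdh1 and Nkx2-1 stood at 0.59, 0.272 and 0.558 times their control means. In the Tfam line they stood at 0.967, 0.682 and 0.86, and in the Cox10 line at 0.818, 0.746 and 0.734. The scaled values of Uchl1 thus depend on the reference genes chosen, and each of these genes alone was not tested as the reference. In bulk RNA, fewer cells with Uchl1 and less Uchl1 RNA per cell cannot be told apart, and which cells the Uchl1 RNA came from was not tested.

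**Figure D2:**
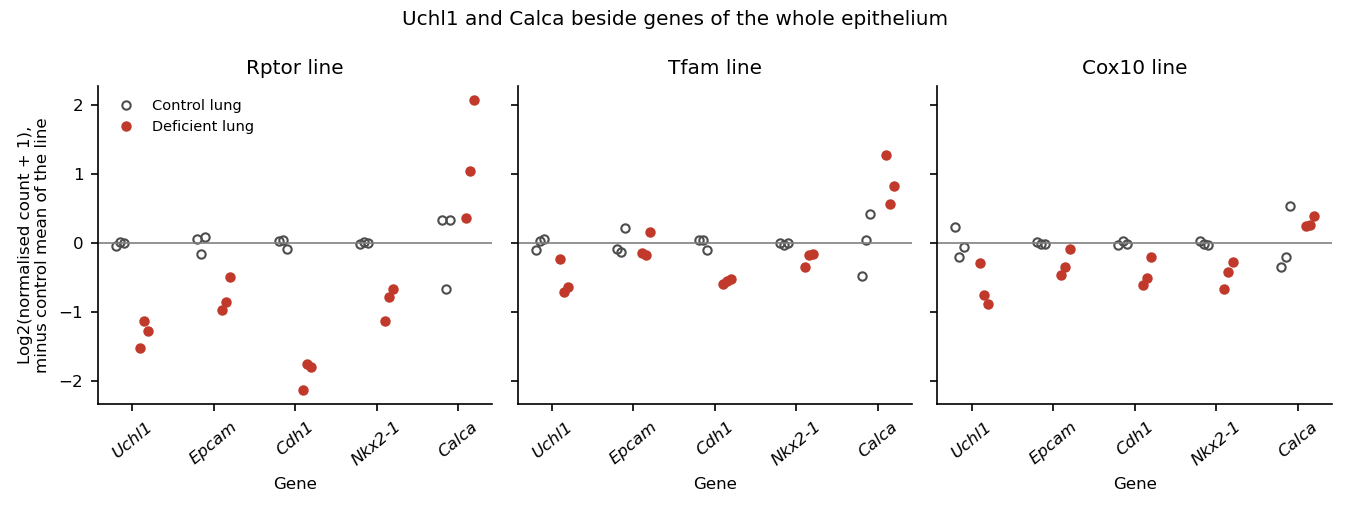
Log2(normalised count + 1) minus the control mean of the line (vertical axis) for Uchl1, 3 epithelial genes and Calca (horizontal axis) in each lung, controls open and deficient lungs filled. In the Rptor line Uchl1 and the epithelial genes all lay below the controls while Calca lay above them.

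Calca encodes calcitonin and, through another splicing of the same transcript, the calcitonin gene-related peptide (CGRP), the peptide product known from these cells. Gene totals do not separate the products. In the Rptor line it stood at 13.0, 5.99 and 12.9 normalised counts in controls and at 13.3, 21.8 and 45.5 in deficient lungs. The groups did not overlap, but the lowest deficient lung exceeded the highest control by less than a read. On the log2 scale Calca was higher by 1.16 (SE 0.48), which did not pass (limma adjusted p = 0.0923). It passed in a limma fit of all 18 lungs (0.029). Leaving out 1 lung gave 0.70 (adjusted p = 0.269, without deficient replicate 3, the highest) to 1.55 (0.0268, without deficient replicate 1, the lowest deficient lung), and the latter was the only 1 of the 6 such fits to pass.

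Calca read 8.13, 12.1 and 16.0 in Tfam controls and 29.8, 17.9 and 21.5 in Tfam-deficient lungs. All 3 deficient lungs were above all 3 controls. Its log2 fold change of 0.89 (SE 0.32) did not pass (limma adjusted p = 0.175). Cox10 controls read 10.9, 12.1 and 21.0 and Cox10-deficient lungs 17.0, 17.1 and 18.8, and the groups overlapped (log2 fold change 0.30, SE 0.32, adjusted p = 0.692).

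Averaged over the lines, the log2 fold change of Calca was 0.78 (SE 0.23, limma adjusted p = 0.0138). The effects in single lines were not shown to differ, with differences of 0.26 (95% interval -0.93 to 1.46) between Rptor and Tfam, 0.86 (-0.34 to 2.05) between Rptor and Cox10 and 0.59 (-0.60 to 1.79) between Tfam and Cox10. The paralog Calcb, which lies on the same chromosome and encodes a second CGRP, had control means of 4.65, 5.72 and 15.7 normalised counts in the Rptor, Tfam and Cox10 lines, against 4.04, 4.95 and 12 in deficient lungs. How reads matching both genes were counted is not given in the sources used here, so both values are uncertain.

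Grp encodes gastrin-releasing peptide, the other peptide by which these cells are known. Controls of the Rptor line read 42.9, 24.0 and 24.9 normalised counts and deficient lungs 56.1, 30.7 and 29.6. For Tfam the values were 46.7, 42.4 and 52.0 against 46.6, 58.6 and 71.4. For Cox10 they were 21.8, 21.2 and 25.0 against 26.9, 18.1 and 30.6. The groups overlapped in all 3 lines, and in the Rptor line replicate 1 was the highest of both groups. The log2 fold changes were 0.32 (95% interval -0.43 to 1.08), 0.30 (-0.14 to 0.74) and 0.12 (-0.51 to 0.75), none of which passed by limma.

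The granins are acidic proteins that pack the cargo of dense-core granules, and both were near the limit of detection. Chga, which encodes chromogranin A, read 6.98, 6.99 and 4.97 normalised counts in Rptor controls and 8.16, 4.95 and 2.96 in Rptor-deficient lungs, too low to test. Tfam controls read 10.2, 13.1 and 12 against 7.94, 6.95 and 12.7 in deficient lungs (-0.36 on the log2 scale, SE 0.34, limma adjusted p = 0.652). Cox10 controls read 20.8, 8.07 and 13.0 against 24.9, 14.1 and 5.93 in deficient lungs, with a difference of -0.01 (SE 0.54) whose sign turned under other settings. The groups overlapped in every line.

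Chgb, which encodes chromogranin B, read 6.98, 5.99 and 12.9 in Rptor controls and 11.2, 13.9 and 18.8 in deficient lungs (0.74 on the log2 scale, SE 0.38, limma adjusted p = 0.163). For Tfam the values were 6.10, 5.05 and 5 against 8.93, 7.94 and 20.5. The Tfam-deficient lungs were all above their controls, but Chgb was below the level needed for a test. For Cox10 they were 22.8, 19.2 and 19.0 against 24.9, 13.1 and 11.9, with the lungs overlapping (-0.34, SE 0.33, adjusted p = 0.665). Resp18, an endocrine secretory protein of the granules, lay between 0 and 2.00 in Rptor lungs, 0 and 6.06 in Tfam lungs, and 1.01 and 4.99 in Cox10 lungs, and gives no difference at this depth.

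Syp encodes synaptophysin, a membrane protein of small secretory vesicles. Its values were 119, 145 and 134 normalised counts in Rptor controls and 166, 147 and 150 in Rptor-deficient lungs. For Tfam they were 138, 140 and 108 against 134, 131 and 124, and for Cox10 102, 105 and 121 against 113, 108 and 168. The Rptor-deficient lungs were just above their controls, whereas the groups overlapped in the other lines. The log2 fold changes were 0.22 (95% interval -0.086 to 0.53), 0.018 (-0.28 to 0.32) and 0.22 (-0.23 to 0.66), and none passed by limma.

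Counted without a test over all 7 members, 3 did not overlap between groups in the Rptor line (Calca and Syp above, Uchl1 below), against 50.3% of genes tested. Tfam lungs gave 3 (Calca and Chgb above, Uchl1 below), against 22.8%, and Cox10 lungs 1 (Uchl1 below), against 21.3%. The median log2 fold change of the members tested was 0.32, 0.018 and 0.055 in the 3 lines, beside 0.0083, 0.00098 and 0.0014 over all genes tested.

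**Figure D3:**
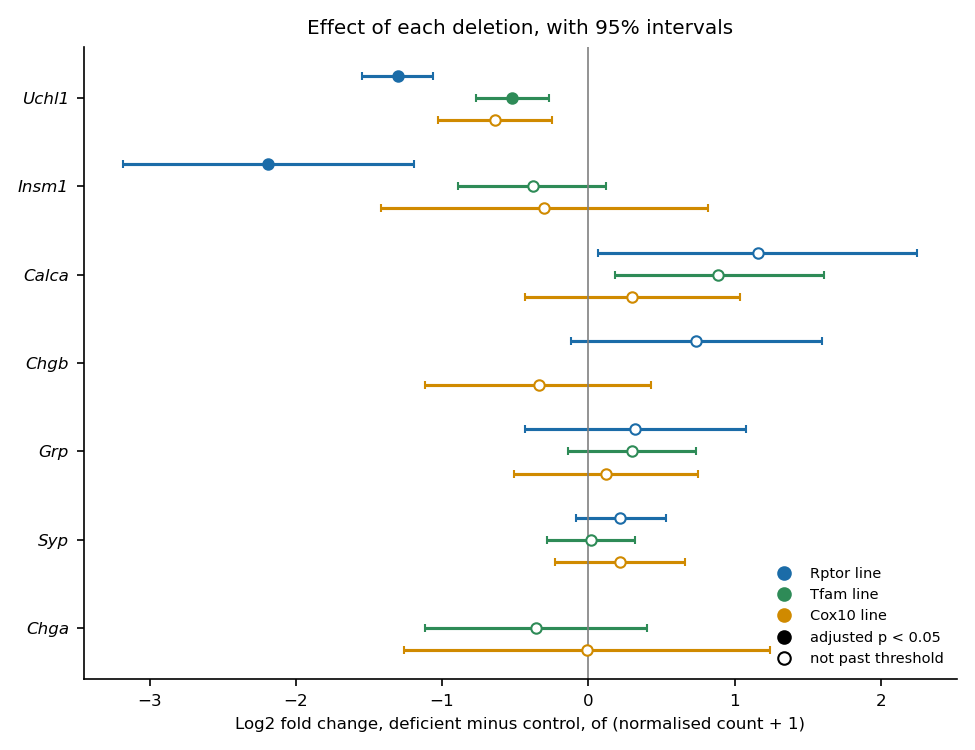
Log2 fold change of deficient against control lungs (horizontal axis) with its 95% interval for each tested member and for the lineage factor Insm1, by line (colours); filled points passed limma's adjusted threshold of 0.05. Uchl1 and Insm1 lie left of 0 in the Rptor line and Calca right of it, while the intervals of Grp, Syp, Chga and Chgb span 0.

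Other genes of the neuroendocrine programme were read from lists that follow the steps of the pathway. Among 11 transcription factors of the lineage, 5 could be tested in the Rptor line, of which Insm1 passed lower and Isl1 and Prox1 higher (3 of 5, where 34.8% of all genes passed). Insm1, a zinc-finger factor required for neuroendocrine differentiation, read 21.9, 29.0 and 31.8 in Rptor controls and 3.06, 3.96 and 10.9 in deficient lungs. It fell by 2.19 on the log2 scale (SE 0.44, limma adjusted p = 0.00596), and no Rptor-deficient lung reached the lowest control. Insm1 entered this test mostly through its controls, since of the deficient lungs only replicate 3 held 10 or more normalised counts. It was too low to test where a mean of at least 50 was required. Its groups overlapped for Tfam and Cox10, where it did not pass (-0.38 and -0.30). Isl1, a LIM-homeodomain factor that lung mesenchyme and heart also use, was 0.67 higher at an adjusted p of 0.05 just inside the threshold, and this pass was lost with the replicate block (0.0518), by edgeR (0.0586), by DESeq2 (0.0776), in 5 more of the 11 alternatives that keep every lung (0.0505 to 0.0909) and without any single lung but control replicate 3 (0.0727 to 0.157). Prox1, a homeodomain factor that lymphatic vessels also use, was 0.57 higher (adjusted p = 0.0297), a pass lost without control replicate 1 or 2 or deficient replicate 2 or 3 (0.0532 to 0.097) and with all 18 lungs in 1 fit (0.0785). Neurod1, Neurod4 and Nkx2-2 stood at or below 2.02 in every lung. In the Tfam and Cox10 lines 0 of the factors tested passed by limma, edgeR or DESeq2 or had an unadjusted p below 0.05. Averaged over the lines, 2 of the 5 factors tested passed by limma, against 37.1% of all genes. These were Insm1, lower, and Meis2, higher, which passed in no single line by limma.

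Of 3 repressors of the fate (Hes1, Hey1 and Rest) 0 passed in any line by limma, edgeR or DESeq2, and 1 had an unadjusted p below 0.05, in the Cox10 line. Of 12 genes for granule cargo and peptide processing, 2 of 5 tested passed higher in the Rptor line, a share near the 34.8% of all genes. These were Ptprn2, a granule membrane protein (0.88, limma adjusted p = 0.0165), and Cpe, which trims peptide precursors (0.39, 0.0172). Of the 7 too low to test, 2 did not overlap between the Rptor groups, against 50.3% of genes tested. They are named after their values were seen. Pcsk1, a convertase that cleaves peptide precursors, was lower, at 6.98, 7.99 and 9.95 in controls against 1.02, 1.98 and 0.988 in deficient lungs, while Scg5, a chaperone of another convertase, was higher, at 4.99, 5 and 6.96 against 8.16, 9.9 and 7.91. The pass of Ptprn2 was lost without control replicate 2 or 3 or deficient replicate 3 (0.0552 to 0.057), and that of Cpe without control replicate 1 or 2 or deficient replicate 2 (0.0556 to 0.0667) or with all 18 lungs in 1 fit (0.101). Ptprn2 also passed higher in the Tfam line (0.82, limma adjusted p = 0.0419), as 1 of 6 tested, against 4.66% of all genes. This pass was lost with the replicate block (0.0658), by DESeq2 (0.0536), with all 18 lungs in 1 fit (0.121) and without a filter (0.0743). It was also lost without control replicate 1 or 2 or deficient replicate 2 or 3 (0.0755 to 0.174). For Cox10 0 of 7 passed by any of the 3 tools or had an unadjusted p below 0.05.

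Of 13 genes for vesicle release, 12 were tested in the Rptor line, with 3 passing higher and 2 lower, a share near the 34.8% of all genes. Sv2a, a glycoprotein of the vesicle membrane, was 0.79 higher on the log2 scale (limma adjusted p = 0.0102). Rab3c, a small GTPase of secretory vesicles, read 65.8, 76.9 and 54.7 in controls and 10.2, 15.8 and 10.9 in deficient lungs and fell by 2.34 (0.000445). The others were Rab3a and Vamp2, which were higher, and Cplx2, a regulator of fusion, which differed by -0.17 and lost its pass with the replicate block (0.0511), by DESeq2 (0.0547), with all 18 lungs in 1 fit (0.0634), without a filter (0.0553) and scaled to library totals (0.0577). Rab3a lost its pass by DESeq2 (0.0795), without a filter (0.0676) and with a pseudocount of 5 (0.0501). Leaving out a lung ended the pass of Cplx2 in 5 of 6 fits (all but that without deficient replicate 1, 0.09 to 0.136) and that of Rab3a in every fit (0.0508 to 0.151). It ended that of Vamp2 without any control or deficient replicate 2 (0.0562 to 0.0947). Tfam-deficient lungs had 1 pass of 13, Cplx2, lower (-0.34, limma adjusted p = 0.0348), against 4.66% of all genes. That pass was lost without control replicate 1 or 2 or deficient replicate 2 or 3 (0.0874 to 0.159). For Cox10 0 of 13 passed by limma or edgeR, 1 by DESeq2, with 3 at an unadjusted p below 0.05. Many of these genes, like Syp, serve neurons too, and the source of their transcripts was not tested.

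Of 7 genes for making and packing amines and GABA, 0 passed by limma or edgeR in any line and 1 by DESeq2, in the Cox10 line, with 2 and 1 at an unadjusted p below 0.05 in the Tfam and Cox10 lines. Averaged over the lines, Slc18a1, a vesicular amine transporter, passed higher (0.48, limma adjusted p = 0.0221, and 0.0503 without Tfam deficient replicate 3) and Ddc, which makes serotonin and dopamine from their precursors, lower (-0.33, 0.000128). Of the 3 amine and GABA genes tested for this average 2 passed, against 37.1% of all genes. Of 6 receptor genes for these peptides, Calcrl passed higher in all 3 lines, as the only one, against 34.8%, 4.66% and 0.475% of all genes. Calcrl, the receptor that binds CGRP with Ramp1 and adrenomedullin with the other RAMPs, and which endothelium also uses, rose by 0.70, 0.42 and 0.74 on the log2 scale (limma adjusted p = 0.0014, 0.00995 and 0.0365). The Tfam pass was lost without deficient replicate 3 (0.36, 0.054). In the Cox10 line the pass was lost without any of the 3 controls or deficient replicate 1 (0.0589 to 0.26), without both lungs numbered 1 (0.297), and with the replicate block (0.0569).

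**Figure D4:**
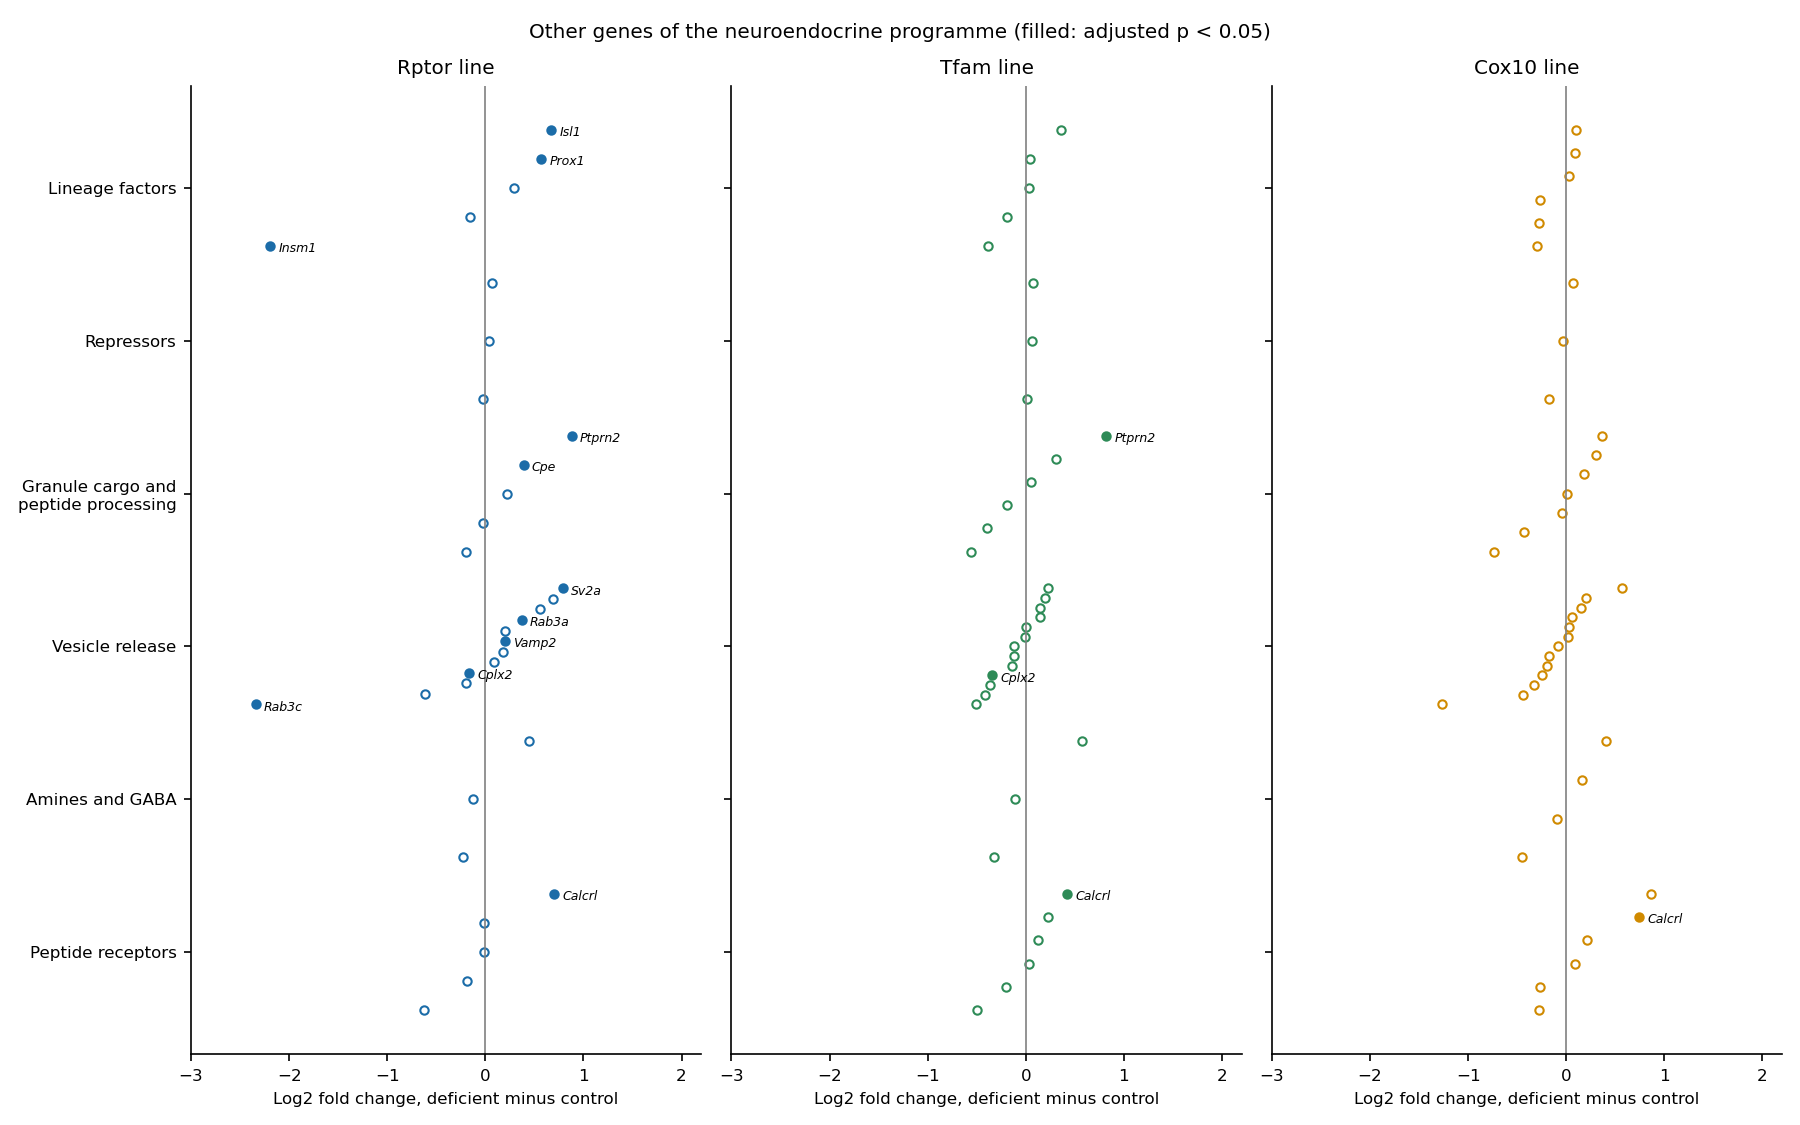
Log2 fold change of deficient against control lungs (horizontal axis) for every tested gene of 6 lists (vertical axis, spread within a list by rank) in the 3 lines; filled and named points passed limma's adjusted threshold of 0.05. In the Rptor line Insm1 and Rab3c lie far to the left while most named genes lie to the right, and Calcrl is filled in all 3 panels.

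Markers of other cells that express these members were read beside them. Of 13 neuronal genes only Ret passed by limma, lower for Rptor (-2.26) and for Tfam (-1.59), against 34.8% and 4.66% of all genes. For Cox10 0 passed by limma or edgeR and 1 by DESeq2, with 1 at an unadjusted p below 0.05. Ret, a receptor for growth factors of the GDNF family, averaged 233 in Rptor controls against 48.2 in deficient lungs, and read 255, 223 and 221 in Cox10 controls against 141, 61.3 and 44.5, without overlap (-1.66, limma adjusted p = 0.133). The other direction was more common in the Rptor line, where 8 of the 10 neuronal genes tested had a positive log2 fold change (median 0.22, beside 0.0083 over all genes). The summed level of the neuronal list was 661 to 916 in Rptor controls and 724 to 769 in deficient lungs. For Tfam it was 986 to 1604 against 824 to 1311, and for Cox10 1176 to 1518 against 611 to 1871. Without Ret the Rptor sums were 441, 674 and 674 against 730, 688 and 672. Tubb3, a tubulin of neurons, was present in every lung, with group means between 43.5 and 119. Of 6 glial genes 0 passed in any line by limma, edgeR or DESeq2 or had an unadjusted p below 0.05, with sums of 229 to 282 against 303 to 397 (Rptor), 351 to 456 against 329 to 559 (Tfam) and 460 to 575 against 352 to 675 (Cox10). The glial sums of the Rptor line did not overlap. Sox10, which defines glia, had group means between 30.9 and 151.

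Heart genes, whose source in these lungs was not tested, varied widely between lungs of a group. Their 5-gene sum was 479 to 2309 in Rptor controls and 676 to 1636 in deficient lungs. For Tfam it was 2868 to 7702 against 4917 to 14964, and for Cox10 451 to 4421 against 432 to 4304. Nppa, the atrial natriuretic peptide gene, passed higher in the Tfam line (2.29, limma adjusted p = 0.000273). Sums of 4 thyroid genes, the organ whose C cells also make calcitonin, stayed between 17.8 and 42.7 in all lungs.

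The Cox10 lungs numbered 1 held the most heart and neuronal RNA of their groups, at 1518 and 1871 for the neuronal sum, and also the most Chga (20.8 and 24.9) and Chgb (22.8 and 24.9). A fit without those 2 lungs was not planned and leaves 2 against 2. In it the log2 fold change in the Cox10 line was -0.58 for Chgb, 0.25 for Syp, 0.16 for Calca and -0.70 for Uchl1. With all lungs the values were -0.34, 0.22, 0.30 and -0.64. Chga was too low to test in the smaller fit. The part of nerve and heart RNA in the values of Chga, Chgb, Syp and Calca was not tested.

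**Figure D5:**
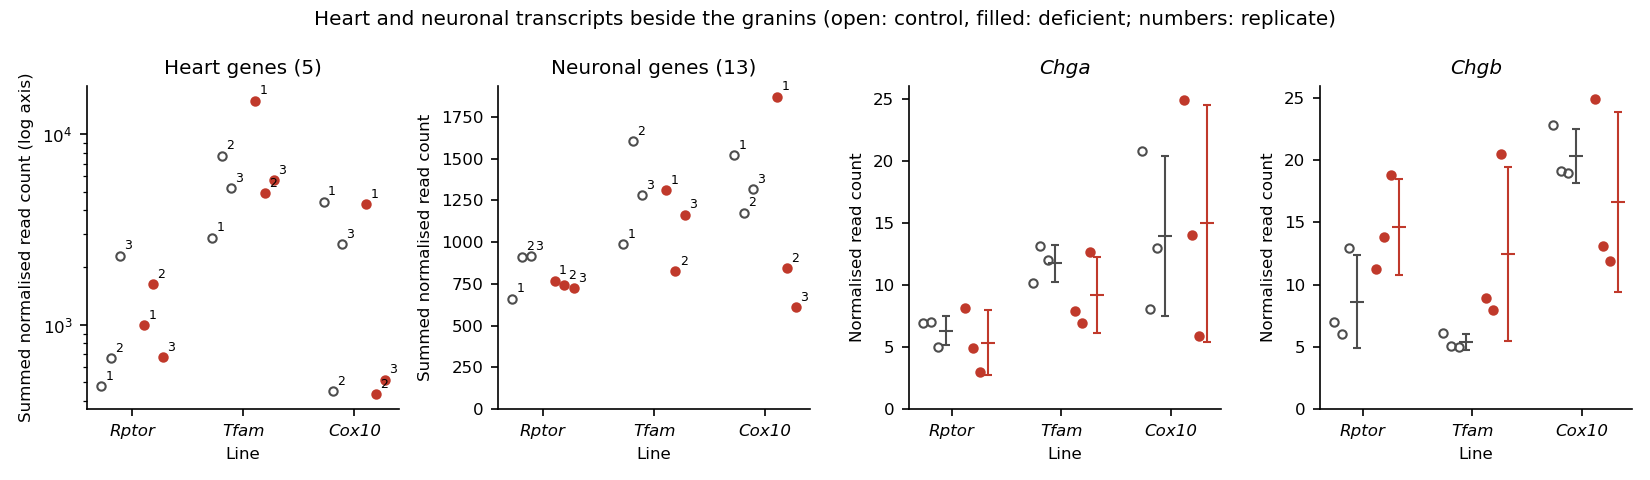
Summed normalised read counts of 5 heart genes (log axis) and 13 neuronal genes, and the normalised counts of Chga and Chgb, in each lung by line; in the first 2 panels numbers give the replicate, and in the others the dash and bar are the mean and SD of 3 lungs. Cox10 replicate 1 stood highest of its group in all 4 panels, in controls and deficient lungs alike.

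For each member the 3 genes most alike across the 18 lungs were taken by Pearson correlation of log2 values centred on the mean of the line. The candidates were the 12947 genes that passed the filter in every line and had a mean of at least 50 normalised counts, which of the members only Uchl1 and Syp reached. For Uchl1 the 3 genes were Smoc2 (r = 0.964), Tbx1 (0.963) and Ret (0.951). For Calca they were Chpf (0.898), Psen2 (0.882) and Anapc16 (0.858), and for Syp they were Bscl2 (0.911), 4930444A02Rik (0.895) and Tpp1 (0.882). Grp came closest to Vps45 (0.848), Chga to Lss (0.858), Chgb to Dcaf8 (0.775) and Resp18 to Bzrap1 (0.807). These are descriptions of lungs that share 3 deletions and their control groups.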

How the data were processed

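The members and the gene lists were chosen with earlier results of these data known. RNA had been extracted from whole embryonic lungs and sequenced by the authors. The submitters' processing notes name Trim Galore, HISAT2, featureCounts, DESeq2 and mm10, without versions, and the strand setting is not given in the sources used here. The authors deposited 1 table per line with a signal per lung, a read count divided by a size factor. All low values (100%, within 0.1 of a whole number) were whole multiples of the value of 1 read (0.978 to 1.02). The tables also hold the authors' log2 fold changes, p-values and adjusted p-values, which were not used.

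Groups and replicate numbers were read from the sample titles. Values were tested as log2(value + 1), without further scaling, in limma 3.58.1 (R 4.3.3, mean-variance trend), line by line. This scale understates changes of low genes. Genes with a value of 10 or more in at least 3 of 6 lungs were tested, and p-values were adjusted over all of them (Benjamini-Hochberg, two-sided). Differences and averages of effects used 1 model of 18 lungs over 14550 genes tested in every line. Because the deposited unit was a signal, limma was the main test, and edgeR 4.0.16 and DESeq2 1.42.0 were run on the recovered reads. Scripts were tested on simulated data.

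All 7 members were named. Of every other list, up to 2 genes per line with the largest change past the threshold were named, together with marker genes of other cells. Further passing genes and the genes passing only on average were named after their values were seen. Same-numbered lungs deviated together in the Rptor line (r = 0.234, 0.445 and 0.362) and, less evenly, in the Cox10 line (0.544, 0.172 and 0.095). Those of the Tfam line did not all do so (-0.387, -0.211 and 0.250). Counting error and the spread between lungs set the precision. All 153 pairs of lungs differed by more than sampling noise (chi-square per gene of 4.11 or more). Reads of Uchl1, Syp, Grp and Resp18 could include overlapping antisense transcripts. Some genes of the vesicle release and neuronal lists are not reported here.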

Additional observations from a re-analysis of the deposited data

Results flagged for a closer look

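The difference in Uchl1 between deficient and control lungs was unequal in the Rptor and Tfam lines. The log2 fold change in the Rptor line minus that in the Tfam line was -0.78 (SE 0.21, limma adjusted p = 0.0266, a test of the difference itself), with -1.30 for Rptor and -0.52 for Tfam, and deficient lungs below controls in 3 of 3 samples of each. The pass was lost in 5 of the 18 fits without 1 lung (adjusted p = 0.0548 to 0.0631), namely those without Rptor control replicate 2, Rptor deficient replicate 1, Tfam control replicate 1 or 2, or Tfam deficient replicate 1. Rptor minus Cox10 (0.0682) and Tfam minus Cox10 (0.989) did not pass. Scaled to the epithelial genes of the same lung, the difference was 0.12 (adjusted p = 0.675), while the median difference of all genes moved to 0.90. Whether the loss of epithelial RNA set the difference was not tested.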

How the results depend on the processing

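Counts of members passing were 1 (Rptor), 1 (Tfam) and 0 (Cox10). Scaled to epithelial genes they became 4, 2 and 1, with 3 each for Rptor minus Tfam, Rptor minus Cox10 and the average. On average Calca, Grp and Syp passed, and Uchl1 did not (-0.21, limma adjusted p = 0.0722). By construction this scaling raised nearly all genes. It called 14238 of 14940 genes tested for Rptor, 7571 of 15053 for Tfam and 8100 of 14937 for Cox10. For Rptor minus Tfam it called 12936 of 14550, for Rptor minus Cox10 12351 and for the average 13863. Of the genes called in the lines, 99.2%, 97.4% and 99.1% were then higher, against 47.7%, 43.6% and 29.6%. With all 18 lungs in 1 fit the counts of members became 2, 0 and 1. A threshold of 0.1 gave 2 in the Rptor line and 1 for Rptor minus Cox10, and one of 0.01 gave 0 in the Tfam line, 0 for Rptor minus Tfam and 1 for the average of the lines, as did a mean of at least 50. DESeq2 gave 1 in the Cox10 line and 1 for Rptor minus Cox10. The replicate block also gave 1 for Rptor minus Cox10, and of the counts of members called it changed no other. Leaving out 1 lung gave 1 to 2 (Rptor), 0 to 1 (Tfam), 0 to 0 (Cox10), 0 to 1 for each of Rptor minus Tfam and Rptor minus Cox10, and 2 to 2 for the average. Rptor minus Cox10 reached 1 without Cox10 control replicate 1 or deficient replicate 3. The cause was not tested in these cases. Across all genes of the Cox10 line 71 passed by limma, 68 by edgeR, 325 by DESeq2 and 48 with the block; for the Rptor line limma gave 5202 and edgeR 5209, and for the Tfam line 702 and 696. For Rptor minus Tfam the block gave 2318 against 1626, and for Tfam minus Cox10, 5 against 8 (DESeq2 19).

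Signs turned only for small differences or under the epithelial scaling. That scaling turned Cplx2 in the Rptor line to 1.00 and Ddc on average to 0.28. For Chga in the Cox10 line the value was 0.013 with a pseudocount of 5, 0.39 with epithelial scaling, 0.1 by edgeR, 0.10 by DESeq2, and -0.46 to 0.49 without 1 lung (0.31 without control replicate 1). Chgb in that line became 0.052 with epithelial scaling, and Grp ran from -0.031 (without deficient replicate 3) to 0.33. Syp in the Tfam line ran from -0.10 to 0.085 without 1 lung, with -0.0051 without deficient replicate 1. For Calca, Rptor minus Tfam ran from -0.19 to 0.66 without 1 lung, with -0.069 without Rptor control replicate 2. Uchl1 with epithelial scaling gave 0.12 (Rptor minus Tfam), 0.11 (Rptor minus Cox10) and -0.0054 (Tfam minus Cox10). Unscaled, Tfam minus Cox10 for Uchl1 ran from -0.032 to 0.30 in the fits without 1 lung, with -0.0029 and -0.0056 between. Calca, Chga, Chgb and Resp18 had under 50 normalised counts in every lung, so small differences were not detectable at this depth.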
